A study of Gallus gallus with 60 samples.

Results

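Rab proteins are small GTPases that mark membranes of the cell. In the form that holds GTP, a Rab sits on a vesicle or organelle and recruits the tethers, motors and fusion factors that bring cargo to the next compartment. In neurons, these proteins steer the uptake and recycling of receptors, the release of synaptic vesicles and the transport along axons and dendrites. Their roles given below are those known from mammals and yeast. The members were all probe sets of the Affymetrix chicken array with a single gene symbol made of RAB, a number and, where present, a closing letter or figure. This gave 95 probe sets of 50 genes, of 38535 probe sets in all and 13009 genes with a symbol. One probe set stood for each of 24 Rab genes, and the other 26 genes had 71 probe sets between them.

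RNA came from the posterior cerebrum, taken without meninges, of 60 laying hens aged 65 to 67 weeks. The layer line Lohmann Selected Leghorn (LSL), which lays white eggs, gave 28 hens and Lohmann Brown (LB), which lays brown eggs, gave 32. Both lines were kept in the same small group housing system, with 36 hens (13 LSL, 15 LB) or 54 hens (15 LSL, 17 LB) in a compartment, and a compartment held 1 line. The right side of the cerebrum was sampled in 54 hens, and the left side in 2 LSL and 4 LB hens. The study chose hens that it had classed as stressed or unstressed, a class that the labels used here do not give. Each hen had 1 array.

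The deposited log2 values were centred, so that the median of each probe set was 0 over hens 1 to 30 (15 LSL, 15 LB) and again over hens 31 to 60 (13 LSL, 17 LB). They are relative values within each of these 2 sets of arrays and hold no level of expression, so that the tissue could not be checked by the presence of its markers. All line differences are the LSL mean less the LB mean in log2 units, followed by the standard error, from limma with the set of arrays in the model and Benjamini-Hochberg adjustment over all probe sets (threshold 0.05). Hens of 1 compartment are not known here and were treated as independent, so the standard errors may be too small. In whole tissue, fewer cells of a type and less RNA per cell cannot be told apart. Of the marker probe sets of neurons 1 of 21 passed between the lines, of astrocytes 1 of 8, of oligodendrocytes 1 of 6, of choroid plexus and meninges 1 of 13, each higher in LSL, and of microglia 0 of 13. Of the endothelium 2 were higher and 2 lower of 14 (28.6%), and of red blood cells 0 of 8 passed. Over all probe sets 18.4% passed. The mean over each list ran over overlapping ranges of hens in the lines, and which markers are absent cannot be read from centred values. Their part in the differences of the Rab genes was not tested. Hens 7, 8 and 16 of LB (compartments of 54, first set) had the lowest values of the actin 5' less the actin 3' probe set. These came to between -2.89 and -1.69, and to between -1.33 and 0.24 on the other 57 arrays. The next lowest was LSL hen 9, at -1.33. Hen 7 (-1.69) lay nearer to it than to hens 8 and 16 (-2.88 and -2.89).

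Between the layer lines, 16 of the 95 Rab probe sets differed (16.8%), against 18.4% of all probe sets. Of these, 8 were higher in LSL (8.13% of all probe sets were) and 8 were lower (10.2% of all). They belonged to 12 of the 50 genes (24%, against 32.5% of all genes with a symbol), 6 with higher and 6 with lower values in LSL, and 0 of the 26 Rab genes with several probe sets had calls in both directions (2.8% of all such genes did). At an unadjusted p under 0.05 the count was 25 (26.3%, against 28.4% of all). The median difference over the 95 probe sets was 0.01, and -0.01 over all. The median size was 0.05 in both. Counted by probe sets, the family thus differed about as often, and by about as much, as the whole array. Counted by genes, the share was lower (24% against 32.5%), and neither share was tested. Differences under 0.25 in size made up 7 of the 16, 4 lay between 0.25 and 0.5, 3 between 0.5 and 1, and 2 were above 1, both of RAB22A (0.389% of all probe sets passed with a difference of at least 1).

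**Figure D1:**
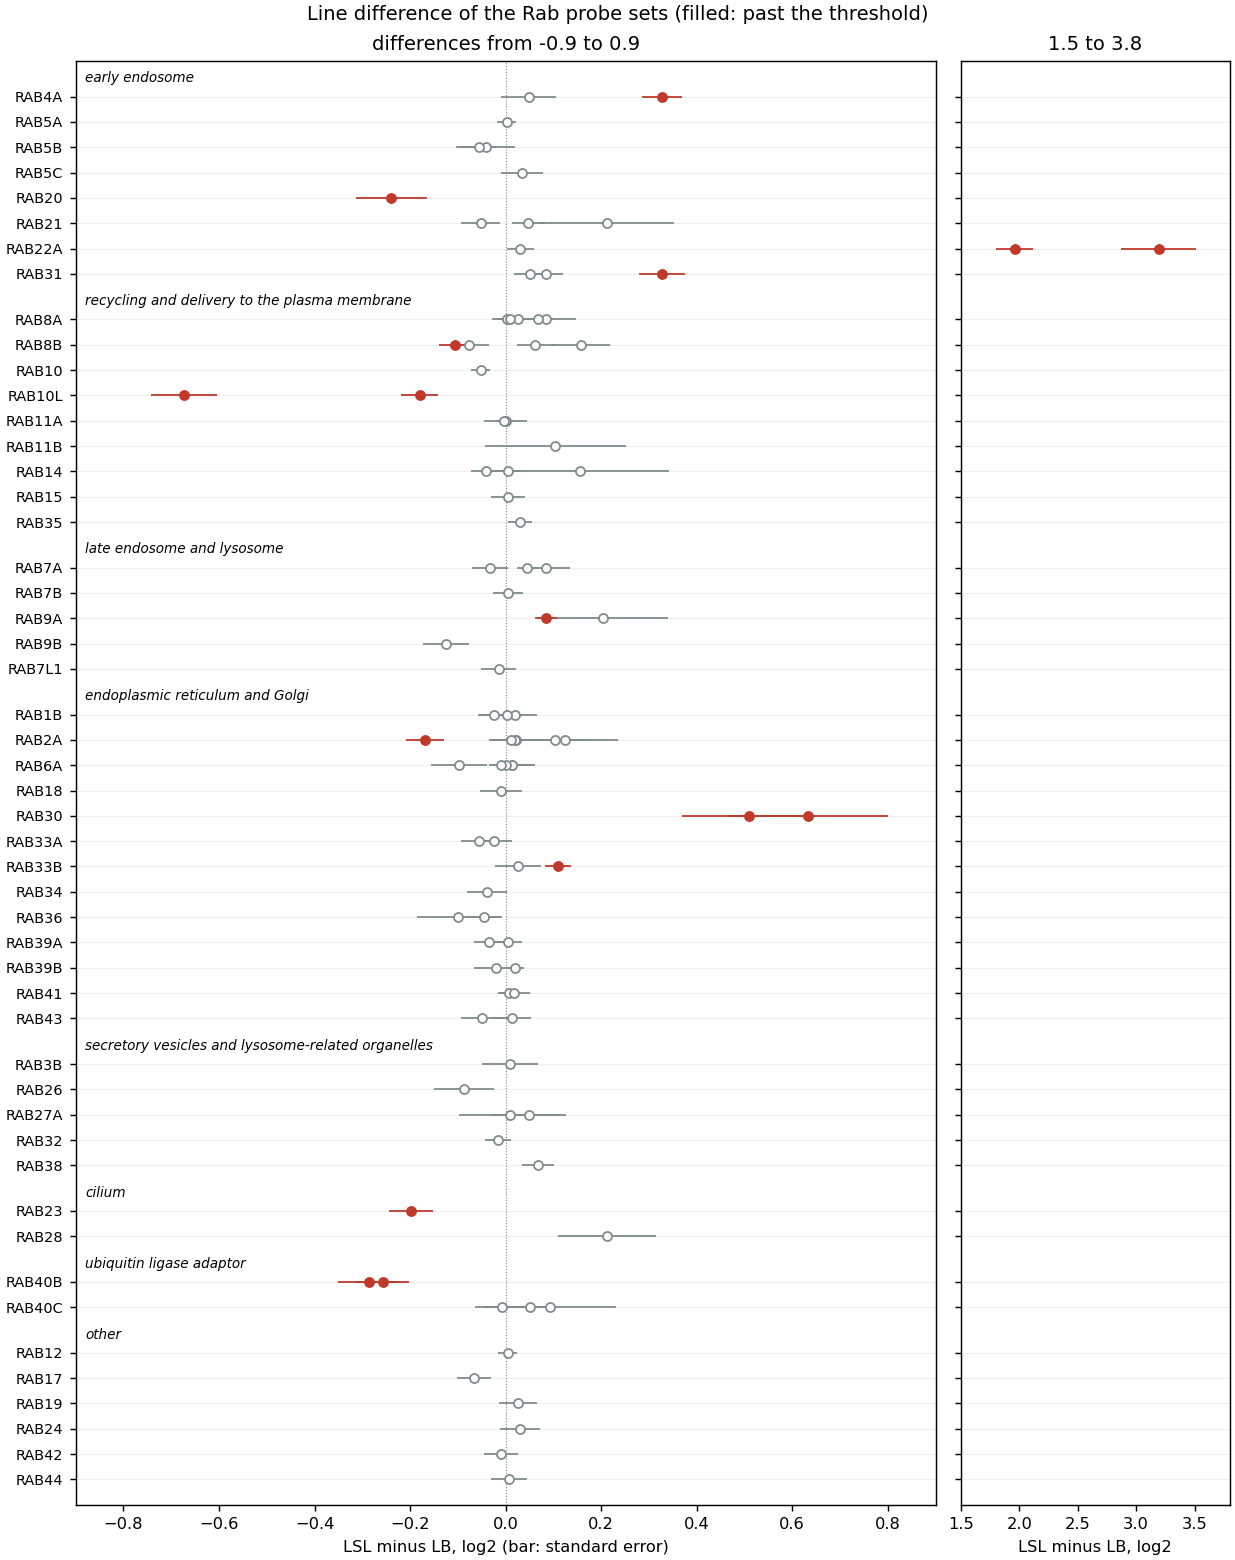
Line difference (LSL minus LB, log2, with its standard error as a bar) of the 95 Rab probe sets, 1 row for each gene, grouped by the compartment that the gene serves. Filled points passed the threshold (16 probe sets), open points did not, and the right panel holds the 2 probe sets of RAB22A, at 1.96 and 3.19, on an axis of its own.

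The early endosome is where cargo taken up from the plasma membrane is sorted, and RAB22A was placed among its Rab proteins. Of 16 probe sets of 8 genes, 4 were higher and 1 was lower in LSL. Over all probe sets 8.13% were higher and 10.2% lower, the shares to set beside this group and those below. The grouping was made with earlier results known, and no group was tested. RAB22A binds the tether EEA1 on early endosomes and directs the recycling of cargo that entered without clathrin, such as MHC class I molecules. In its probe set Gga.7554.1.S1_s_at, the LSL hens of the first set ranged from -0.13 over a median of 0.38 to 0.61, and those of the second from 0.22 over 0.96 to 1.35. The LB hens ranged from -4.68 over -2.51 to 0.32 in the first set and from -4.57 over -1.76 to 0.08 in the second. LSL hens thus spread little within each set, and LB hens mostly lay far lower. In the second set the lines did not overlap (0.548% of all probe sets did not), and in the first set 13 of 15 LB hens lay below the lowest LSL hen.

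The difference was 3.19 (standard error 0.32, adjusted p = 4e-12 from limma). Unlogged, this difference of mean log2 values is 9.15-fold, higher in LSL, and is not a ratio of mean signals. By absolute size the difference ranked 4 among the 38535 probe sets. It was 3.12 (0.40) over hens 1 to 30 alone and 3.23 (0.49) over hens 31 to 60 alone, and 3.16 (0.33) without LB hens 7, 8 and 16. The probe set Gga.19396.1.S1_s_at moved the same way, with LSL hens between -0.08 and 0.80 in the first set and between 0.38 and 1.46 in the second. LB hens lay between -2.09 and 0.36, and between -2.35 and 0.15. Its difference was 1.96 (0.16, adjusted p = 2.04e-15), 3.90-fold in the same sense, and ranked 18. Here, too, the lines were apart in the second set, and 14 of 15 LB hens of the first set lay below all LSL hens. The remaining probe set, Gga.19396.1.S1_at, did not pass, with a difference of 0.03 (0.03, adjusted p = 0.514). All its values lay between -0.15 and 0.39, and the lines overlapped in both sets. Both probe sets that differed carry an "s" in their names, for probes shared by several transcripts, and the remaining one does not. Which transcripts they measure, and whether their probes bind alike in both lines, was not tested.

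**Figure D2:**
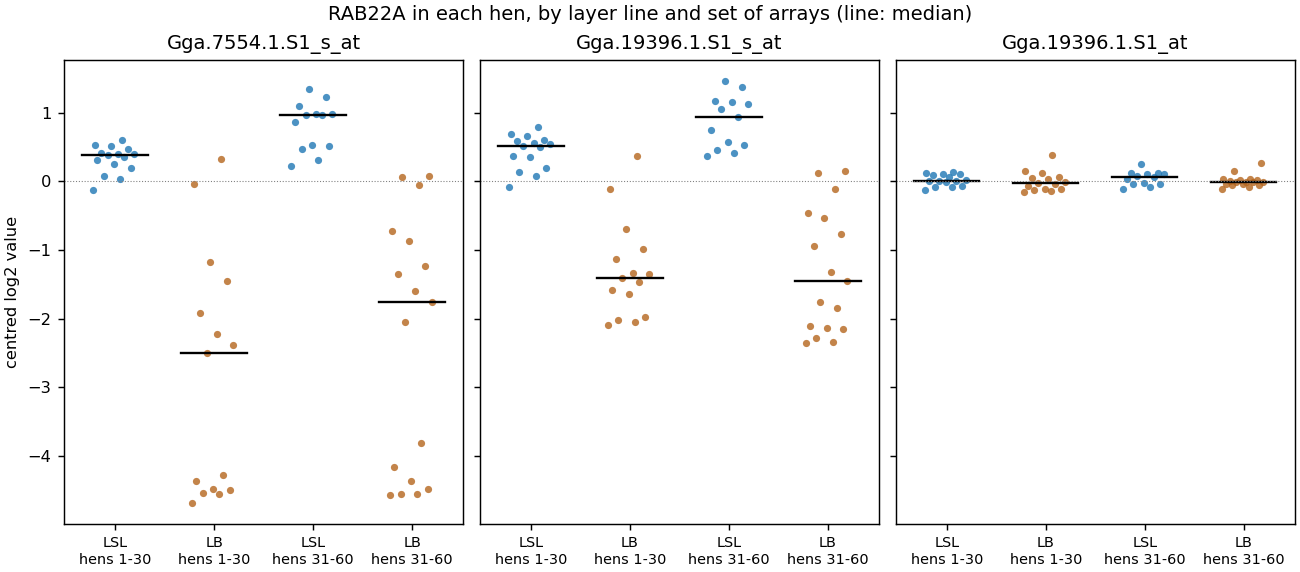
Centred log2 value of the 3 probe sets of RAB22A in each of the 60 hens (points), by layer line and set of arrays, with the median as a line. In Gga.7554.1.S1_s_at the LB hens lay in 3 stretches between -4.68 and 0.32 while the LSL hens lay between -0.13 and 1.35, and in Gga.19396.1.S1_at both lines lay around 0.

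The LB hens did not form 1 cloud. In Gga.7554.1.S1_s_at, 14 of the 32 had values below -3, namely from -4.68 to -4.28 in the first set and from -4.57 to -3.82 in the second. A further 13 lay from -2.51 to -1.18 and from -2.05 to -0.73. The last 5 lay from -0.04 to 0.32 in the first set, within the LSL range, and from -0.06 to 0.08 in the second, below all LSL hens. The highest of them, LB hen 29 at 0.32, was near the LSL median of its set (0.38). There, 9 of 15 LSL hens lay above every LB hen. No LB hen fell into the gaps between, in either set, and all 28 LSL hens were above -0.5. LSL hen 27, at -0.13, lay between the middle and the highest LB stretch of the first set. These limits were drawn after the values were seen, and no test was made of them. Compartments of 36 held 9 hens of the lowest stretch, 5 of the middle and 1 of the highest, and compartments of 54 held 5, 8 and 4. Hens 7 and 8 lay in the middle stretch and hen 16 in the lowest. Within lines (and within group size and set), the SD was 1.70 in LB and 0.28 in LSL for this probe set, a ratio of 6.15, and 0.80 and 0.33 for Gga.19396.1.S1_s_at, a ratio of 2.44. Of the 95 Rab probe sets, these 2 alone had an SD in LB over 2 times that in LSL.

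The values of both probe sets followed each other from hen to hen, with a Pearson correlation of 0.92 over the 32 LB hens and 0.82 over the 28 LSL hens, after removal of the means of group and set. The unmoved probe set had correlations of 0.10 and 0.00 with Gga.7554.1.S1_s_at. Likeness to Gga.7554.1.S1_s_at over other genes was lower and led to different genes in each line. Over the LSL hens the 5 nearest were EIF2B3 (0.67), PLCH1 (0.66), S1PR3 (0.66), ATP10D (0.63) and GET4 (0.62). Over the LB hens they were EDAR (0.62), GEMIN6 (0.62), TNS3 (0.60), SYCN (0.60) and TIAM1 (0.59). These correlations are the highest among all probe sets with 1 symbol, those of RAB22A left out, over 28 or 32 hens. Whether they exceed what chance gives was not tested. Of these 10 genes, GEMIN6 passed between the lines, with a difference of 0.12 (adjusted p = 0.0143). In the RefSeq gene table of GRCg7b, used only for names and order, RAB22A lies on chromosome 20. Its 3 neighbours on each side had 6 probe sets between them. Of these, 3 passed, each lower in LSL: APCDD1L (-0.14), VAPB (-0.07) and C20orf85 (-0.15). The others were STX16 (-0.06), ANKRD60 (-0.07) and PPP4R1L (0.03), so that none of the 6 followed the higher values of RAB22A.

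RAB31 belongs to the same branch of the family as RAB22A and carries cargo between the trans-Golgi network and endosomes. In its probe set Gga.12926.1.S1_s_at, LSL hens lay between -0.31 and 0.64 with a median of 0.24 in the first set, and between 0.16 and 0.48 with a median of 0.25 in the second. LB hens lay between -0.43 and 0.35 (median -0.12), and between -0.29 and 0.03 (median -0.13). The lines overlapped widely in the first set and not at all in the second. The difference was 0.33 (0.05, adjusted p = 2.51e-07) over all hens, 0.42 (0.04, adjusted p = 1.09e-08) over hens 31 to 60, and 0.24 (0.08), not past the threshold, over hens 1 to 30 (adjusted p = 0.07). Over 14 alternative fits the difference ranged from 0.22 to 0.42, and 2 of the fits did not pass, that over hens 1 to 30 among them. The other 2 probe sets of RAB31 did not pass (0.08 and 0.05). RAB4A returns cargo from early endosomes straight to the plasma membrane. In Gga.17618.1.S1_at, the LSL hens had medians of 0.14 and 0.13 in the first and second set, against -0.26 and -0.09 for the LB hens, with ranges of -0.30 to 0.57 and -0.03 to 0.34, against -0.66 to 0.26 and -0.40 to 0.08. Of the 28 LSL hens, 27 lay above the LB median of their own set. Its difference of 0.33 (0.04, adjusted p = 6.95e-09) also passed within each set (0.36 and 0.30). The other probe set of RAB4A did not pass (0.05).

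RAB20, which acts in the maturation of phagosomes and endosomes, was lower in LSL (-0.24, standard error 0.07, adjusted p = 0.015). Without LB hens 7, 8 and 16 it was -0.18 and no longer passed (adjusted p = 0.0551). In all, 5 of 14 alternative fits did not pass. The difference ranged from -0.33 to -0.15 over the 14, and the highest adjusted p was 0.354. The 3 forms of RAB5, which drive the fusion of early endosomes, had 4 probe sets with differences between -0.06 and 0.03, and none passed. RAB21, which carries integrins inward, had 3 probe sets between -0.05 and 0.21, of which none passed. The highest, GgaAffx.23155.1.S1_at, was at -0.01 without LB hens 7, 8 and 16.

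Recycling to and delivery at the plasma membrane involves RAB8, RAB10, RAB11, RAB14, RAB15 and RAB35. Of 20 probe sets of 9 genes in this group, 0 were higher and 3 were lower in LSL. The clearest difference was that of RAB10L, a gene that is placed here by its name alone, as one like RAB10. In Gga.8164.1.S1_a_at, the LSL hens ran from -0.98 over -0.50 to 0.22 in the first set and from -0.70 over -0.31 to -0.12 in the second. The LB hens ran from -0.07 over 0.29 to 1.05 and from -0.13 over 0.24 to 0.56. All 28 LSL hens lay below the LB median of their set, and in the second set 16 of 17 LB hens lay above every LSL hen. The difference was -0.67 (0.07, adjusted p = 6.51e-12). It was -0.80 within the first set and -0.56 within the second. LB hens 7, 8 and 16 had the highest values of this probe set among all 60 (0.84, 0.80 and 1.05), and without them the difference was -0.61 (adjusted p = 8.98e-12). The other probe set of RAB10L was lower by less (-0.18, standard error 0.04, adjusted p = 0.000297). RAB10 itself did not pass (-0.05, standard error 0.02, adjusted p = 0.0642).

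**Figure D3:**
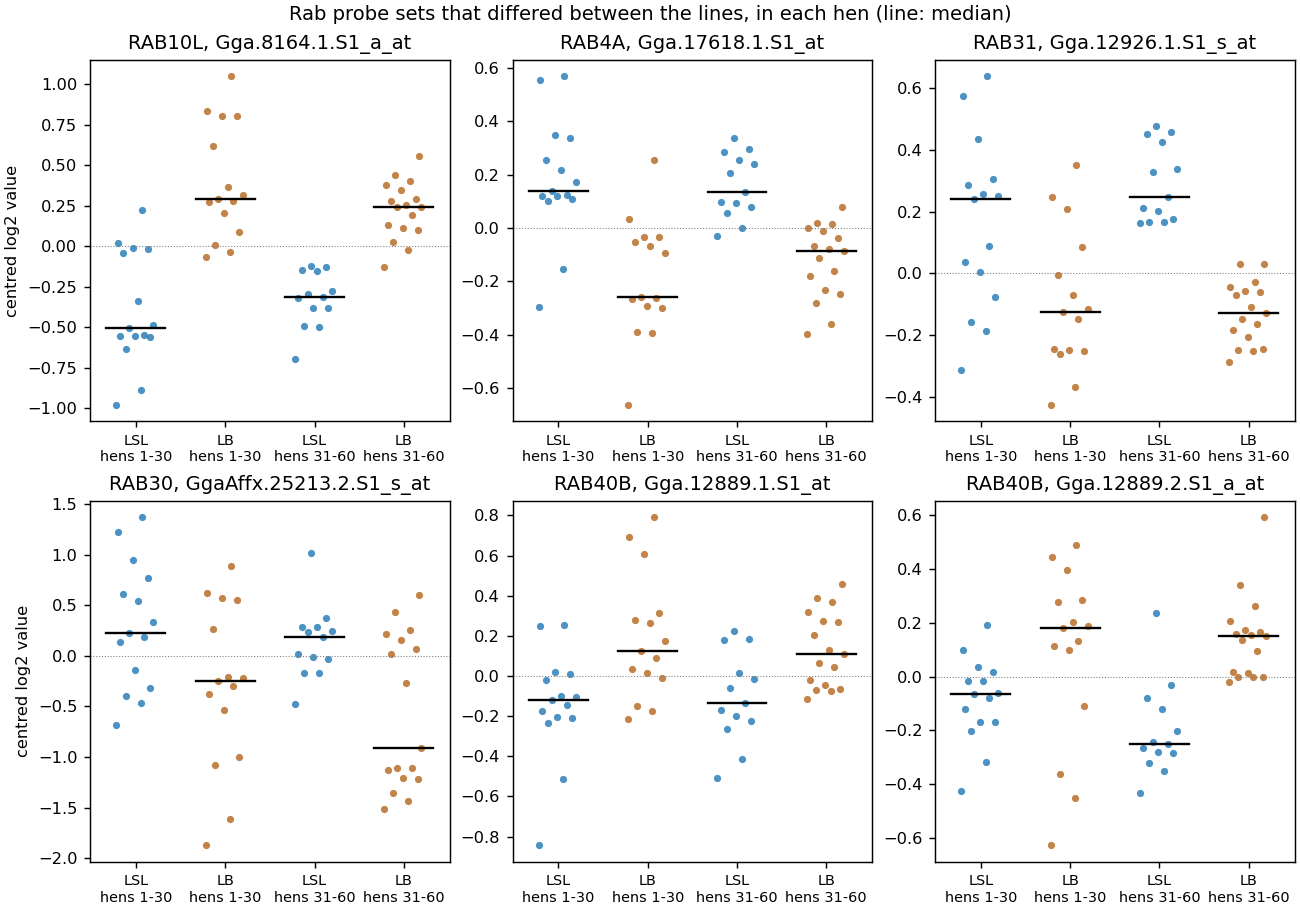
Centred log2 values of 6 Rab probe sets that differed between the lines, in each hen (points), by layer line and set of arrays, with the median as a line and a scale of its own in each panel. LSL hens were lower in RAB10L and RAB40B and higher in RAB4A, RAB31 and RAB30. In RAB31 the lines were apart among hens 31 to 60 and overlapped among hens 1 to 30.

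RAB8B delivers vesicles to the plasma membrane and to cilia, and had 4 probe sets. Gga.13026.1.S1_at was lower in LSL (-0.11, standard error 0.03, adjusted p = 0.0161). LSL hens had medians of -0.05 and -0.06 in the sets, LB hens 0.08 and 0.03, and the ranges of the lines overlapped. The difference did not pass over hens 1 to 30 (-0.08), with the right side alone (-0.09) or in compartments of 54 alone (-0.03). The other probe sets did not pass. Gga.11709.1.S1_at was at 0.16 (0.06, adjusted p = 0.0677), and hen 8 had the lowest value of all hens there, -1.34. Without LB hens 7, 8 and 16 its difference was 0.09 (adjusted p = 0.183). In 4 of 14 alternative fits Gga.11709.1.S1_at did pass, higher in LSL, the direction opposite to that of Gga.13026.1.S1_at. Over the 14 fits its difference ranged from -0.02 to 0.34. Gga.12686.1.A1_at was at -0.08 and Gga.12686.1.S1_at at 0.06. Across hens, Gga.11709.1.S1_at and Gga.13026.1.S1_at had a correlation of 0.57 after removal of group and set, although their line differences had opposite signs. Gga.12686.1.A1_at and Gga.12686.1.S1_at had one of -0.01. The 5 probe sets of RAB8A (0.00 to 0.08), the 3 probe sets of RAB11A and RAB11B, and those of RAB14, RAB15 and RAB35 did not pass between the lines.

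The Rab proteins of the endoplasmic reticulum and the Golgi apparatus made the largest group, with 32 probe sets of 13 genes, of which 3 were higher and 1 was lower in LSL. RAB30, which keeps the structure of the Golgi apparatus, was higher in LSL in both of its probe sets. In GgaAffx.25213.2.S1_s_at, the LSL hens ran from -0.68 over 0.23 to 1.37 in the first set and from -0.47 over 0.18 to 1.02 in the second. The LB hens ran from -1.87 over -0.24 to 0.89, and from -1.51 over -0.92 to 0.61. The ranges overlapped, and the difference came with LB hens that lay below all LSL hens, 4 of 15 in the first set and 9 of 17 in the second. Its size was 0.63 (0.17, adjusted p = 0.00379), and 0.51 (0.14, adjusted p = 0.0053) in GgaAffx.25213.1.S1_at. These 2 probe sets had the highest correlation of any pair in the family (0.96). Neither passed within hens 1 to 30 (0.63 and 0.51, adjusted p = 0.0591 and 0.0714), nor in compartments of 36 alone (0.42 and 0.30), while both passed in compartments of 54 alone (0.88 and 0.74). Hens 7 and 8 had the lowest values of GgaAffx.25213.2.S1_s_at, and without them and hen 16 the differences were 0.54 and 0.47 (adjusted p = 0.013 and 0.0124).

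RAB33B, which works at the Golgi and in the formation of autophagosomes, was higher by 0.11 (0.03) in 1 of 2 probe sets. Its call was lost in 2 of 13 alternative fits. RAB2A acts between the endoplasmic reticulum and the Golgi and was lower in 1 of 6 probe sets (Gga.4794.1.S1_at, -0.17, standard error 0.04). This call was lost in 2 of 14 alternative fits. The other 5 probe sets lay between 0.01 and 0.12 and did not pass. Without LB hens 7, 8 and 16, Gga.13000.1.S1_at of these went from 0.10 to -0.10, again without passing. RAB6A, which brings cargo back to the Golgi, had 5 probe sets between -0.10 and 0.01. None of them passed, nor did those of RAB1B, RAB18, RAB33A, RAB34, RAB36, RAB39A, RAB39B, RAB41 and RAB43.

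Among the remaining members, RAB40B stood out. The RAB40 proteins carry a SOCS box, by which they serve as adaptors of a ubiquitin ligase. Both probe sets of RAB40B were lower in LSL. In Gga.12889.1.S1_at, the LSL medians were -0.12 and -0.13 and the LB medians 0.12 and 0.11. LSL hens ranged from -0.84 to 0.26 and from -0.51 to 0.22, and LB hens from -0.22 to 0.79 and from -0.11 to 0.46. The difference was -0.29 (0.06, adjusted p = 0.000489). It also passed within each set (-0.34 and -0.23). In Gga.12889.2.S1_a_at it was -0.26 (0.06, adjusted p = 0.00034), with -0.16 in the first set, where it did not pass (adjusted p = 0.294), and -0.34 in the second. There, 12 of 13 LSL hens lay below all LB hens. Without LB hens 7, 8 and 16 the value was -0.33. The 3 probe sets of RAB40C did not pass. RAB9A, which recycles mannose 6-phosphate receptors from late endosomes, was higher by 0.09 (0.02) in 1 of 2 probe sets and alone among 8 probe sets of late endosome and lysosome members. Its call was lost in 3 of 13 alternative fits. RAB7A, the marker of late endosomes, did not pass in any of 3. RAB23, a brake on Hedgehog signalling at the cilium, was lower (-0.20, standard error 0.05), but did not pass in 2 of 14 alternative fits. RAB28, also of the cilium, was at 0.21 (0.10), or 0.10 without LB hens 7, 8 and 16, and did not pass. Of the 6 probe sets of RAB3B, RAB26, RAB27A, RAB32 and RAB38, which serve secretory vesicles and organelles like melanosomes, 0 passed in limma, and RAB38 alone had an unadjusted p under 0.05 (0.07, p = 0.0474). RAB12, RAB17, RAB19, RAB24, RAB42 and RAB44, which were put in none of these groups, had 1 probe set each, and none passed (-0.07 to 0.03). The 79 probe sets that did not pass lay between -0.12 and 0.21, 70 of them under 0.1 in size.

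The line difference was compared between the sets of arrays by a line by set term. It passed for 0 of the 95 Rab probe sets in limma, against 0.013% of all, and 9 had an unadjusted p under 0.05 (9.47%, against 7.64% of all). Within hens 1 to 30 alone, 7 Rab probe sets passed (9.11% of all did), and within hens 31 to 60 alone 15 (13.1% of all did), of which 13 were among the 16. The other 2 were probe sets of RAB10 and RAB33B. RAB10L in both probe sets, RAB22A in 2, RAB33B, RAB4A and RAB40B in 1 passed over hens 1 to 30. Probe sets of 1 gene agreed little in how they varied among hens. Over the 77 pairs of probe sets that share a Rab gene, the median correlation was 0.09, with 11 pairs above 0.5 and 28 below 0. A call on 1 probe set is therefore given here as that of the probe set, and of the 10 genes with several probe sets and a call, RAB10L, RAB30 and RAB40B alone had all of them past the threshold in 1 direction.

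Group size was compared over both lines as 54 minus 36 hens. One Rab probe set passed, RAB8B Gga.12686.1.A1_at (0.0156% of all probe sets passed, 6 in number). At an unadjusted p under 0.05 there were 12 (12.6%, against 10.5% of all), and 7 without LB hens 7, 8 and 16 (7.37%, against 10.3%). In the first set of RAB8B Gga.12686.1.A1_at, hens from compartments of 36 ran from -0.35 over -0.12 to 0.09, and those from compartments of 54 from -0.37 over 0.08 to 0.50. In the second set the values were -0.47, -0.07 and 0.01, against -0.14, 0.03 and 0.29. Hens from the larger groups were thus higher in the middle of the distribution, and the groups overlapped in both sets. The difference was 0.22 (0.04, adjusted p = 0.0293). It was of like size in LSL (0.23, standard error 0.06, adjusted p = 0.225) and in LB (0.21, standard error 0.06, adjusted p = 0.195), where it did not pass in either line taken alone. Over hens 1 to 30 it was 0.22 (adjusted p = 0.19), over hens 31 to 60 0.22 (adjusted p = 0.0608), with the right side alone 0.20 (adjusted p = 0.202) and with this actin value of each array as a covariate 0.19 (adjusted p = 0.0791). Without LB hens 7, 8 and 16 it was 0.20 (adjusted p = 0.0429). The other 3 probe sets of RAB8B did not pass. Without LB hens 7, 8 and 16 they were at 0.08 (Gga.11709.1.S1_at), -0.08 (Gga.12686.1.S1_at) and 0.00 (Gga.13026.1.S1_at). The call is thus that of 1 probe set, and the other 3 did not share it. Its name differs from that of Gga.12686.1.S1_at in A1 against S1, and which transcript or strand each measures was not tested.

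**Figure D4:**
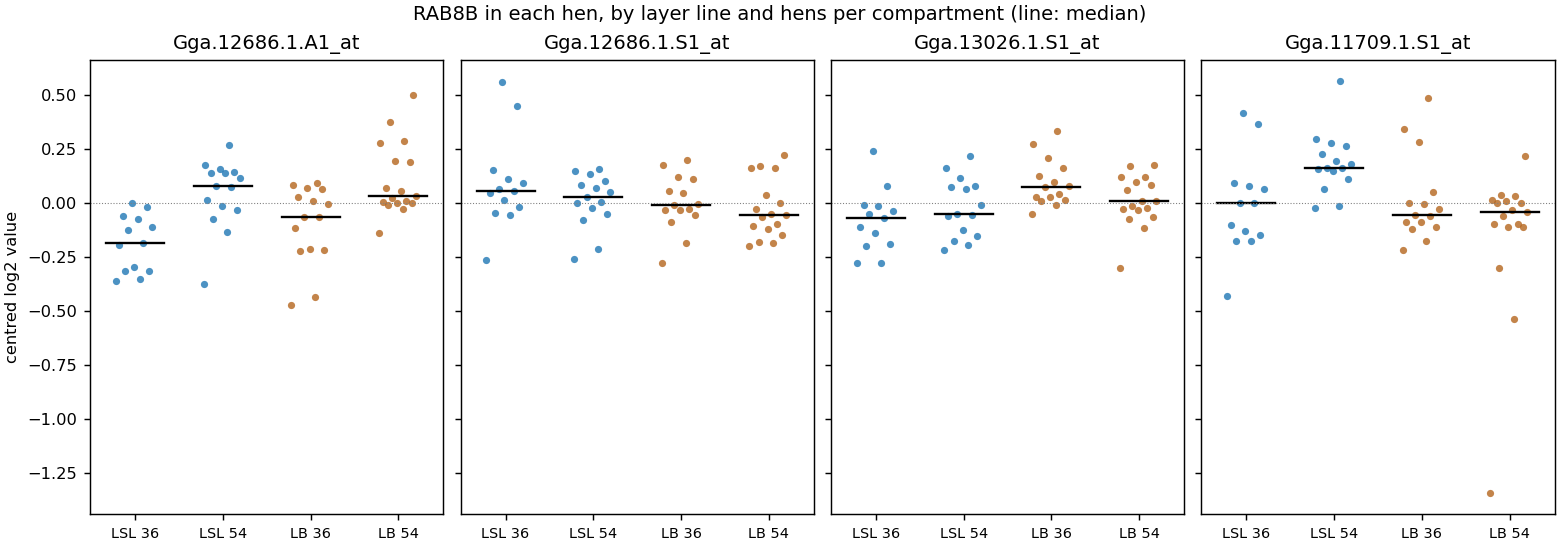
Centred log2 values of the 4 probe sets of RAB8B in each hen (points), by layer line and hens per compartment, with the median as a line. In Gga.12686.1.A1_at the mean was -0.19 in LSL of compartments of 36 and 0.05 of 54, and -0.10 and 0.11 in LB, and the points overlapped. The lowest point of Gga.11709.1.S1_at, at -1.34, is LB hen 8.

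Within the lines, 0 Rab probe sets passed for group size in limma, in LSL and in LB (0.00519% of all in each), and 0 passed for the line by group size interaction (0% of all). At an unadjusted p under 0.05 these were 11 in LSL (11.6%, against 12.1% of all), 19 in LB (20%, against 11.8%) and 12 for the interaction (12.6%, against 12.9%). The count in LB moved with the 3 arrays of the lowest actin 5' less 3' difference, which all come from LB compartments of 54. Without them it was 4 (4.21%, against 5.78% of all), and that of the interaction was 6 (6.32%, against 9.14%). In LSL, after RAB8B, the smallest p belonged to RAB31 Gga.12926.1.S1_s_at (0.22, standard error 0.07, adjusted p = 0.255), RAB6A Gga.14080.1.A1_at (-0.15, adjusted p = 0.295) and RAB24, a Rab of autophagy (0.16, adjusted p = 0.304). In LB, after RAB8B, it belonged to RAB4A Gga.17618.1.S1_at (0.21, standard error 0.06, adjusted p = 0.195), RAB27A GgaAffx.20431.1.S1_at (-0.33, adjusted p = 0.245) and RAB15 (0.14, adjusted p = 0.278). Without the 3 arrays, the values in LB were 0.17 for RAB4A, -0.13 for RAB27A and 0.08 for RAB15.

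For the interaction, the line difference in compartments of 54 minus that in compartments of 36, the smallest p was that of RAB6A Gga.14080.1.A1_at (-0.25, standard error 0.08, adjusted p = 0.247), followed by RAB8B Gga.11709.1.S1_at (0.36, adjusted p = 0.255), RAB43 Gga.19353.1.S1_at (0.20, adjusted p = 0.303) and RAB27A GgaAffx.20431.1.S1_at (0.38, adjusted p = 0.309). None of these passed. Without LB hens 7, 8 and 16, the interaction was 0.23 for RAB8B Gga.11709.1.S1_at and 0.18 for RAB27A. It was -0.22 for RAB6A and 0.17 for RAB43. The smallest p was then that of RAB31 Gga.12926.1.S1_s_at (0.29, unadjusted p = 0.00184 from limma), and 0 Rab probe sets passed. RAB22A Gga.7554.1.S1_s_at had the highest group size difference toward compartments of 54 of all 38535 probe sets, 0.64 (differences ran down to -0.79), but with a standard error of 0.32 it did not pass (adjusted p = 0.48). It was 0.15 (0.47) in LSL and 1.13 (0.44, adjusted p = 0.31) in LB. These standard errors rest on 1 spread shared by all groups, whereas the SD within lines was 0.28 in LSL and 1.70 in LB. They are therefore too large for LSL and too small for LB.

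The arrays of LB hens 7, 8 and 16 were at the edge of the family in more than these probe sets. In 14 of the 95 Rab probe sets (14.7%, against 4.63% of all) all 3 lay below the other 57 hens, and in 3 (3.16%, against 1.78% of all) all 3 lay above. RAB14, which links the Golgi and the recycling endosome, was at -2.84, -2.93 and -3.65 in Gga.16164.1.S1_s_at, where the other hens lay between -1.52 and 0.78. RAB21 was at -1.52, -2.88 and -2.28 in GgaAffx.23155.1.S1_at, against -0.77 to 0.61. RAB2A was at -1.75, -2.35 and -2.02 in Gga.13000.1.S1_at, against -1.12 to 0.53. Probe sets of RAB4A, RAB7A, RAB9A, RAB11B, RAB18, RAB27A, RAB28 and RAB39B were among the 14, and RAB5B, RAB10L and RAB15 were the 3 above. The other probe sets of these genes need not follow. RAB2A Gga.4794.1.S1_at, for example, was -0.17 between the lines with and without the 3 hens, whereas RAB14 Gga.16164.1.S1_s_at went from 0.16 to -0.16, in neither case past the threshold. Without the 3 hens 16 Rab probe sets differed between the lines (18.6% of all did), 15 of them the same as with all hens. That of RAB10 was gained and that of RAB20 was lost.

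**Figure D5:**
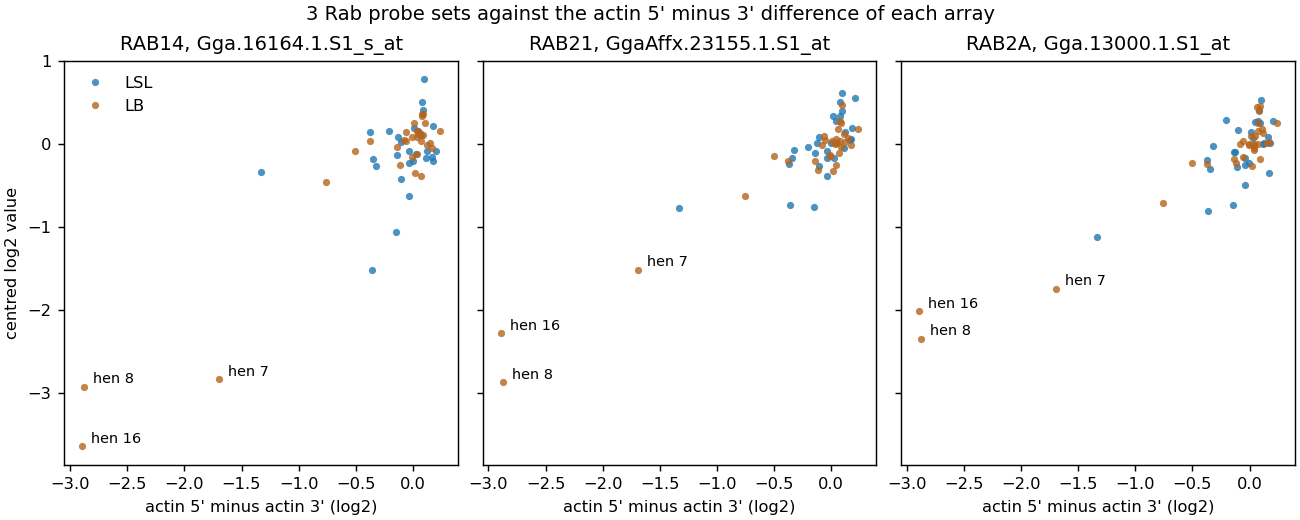
Centred log2 value of 1 probe set each of RAB14, RAB21 and RAB2A (vertical) against the actin 5' minus actin 3' log2 difference of the same array (horizontal), 1 point for each of the 60 hens. LB hens 7, 8 and 16 lay at actin differences from -2.89 to -1.69 and below all other hens in the 3 probe sets.

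The proteins that load, unload and read Rab proteins were described from a list of 106 genes, of which 88 were measured with 225 probe sets. Between the lines 23 of these were higher and 26 lower in LSL (21.8%, against 18.4% of all probe sets), with a median of -0.01, the same as over all. The differences ran from -0.97 to 0.47. The largest was that of VPS39, a subunit of the HOPS tether that RAB7 recruits to late endosomes (-0.97, standard error 0.07, adjusted p = 1.28e-17). Of its other 3 probe sets 2 were lower too (-0.11 and -0.17) and 1 was higher (0.17). The next in size among the lower ones were those of EVI5, a GTPase-activating protein of the TBC family (-0.66), DENND1B, an exchange factor of RAB35 (-0.57), TBC1D4, which switches off RAB10 (-0.54), RUFY2, an endosomal effector (-0.44), and CHM, the escort protein that presents new Rab proteins for lipid attachment (-0.41). RILPL1, which binds RAB8 and RAB10 (0.47), APPL2, an effector on early endosomes (0.44), and RABGGTB, a subunit of the enzyme that attaches the lipid (0.40 and 0.38 in its 2 probe sets), were higher. Each of these values passed. The other probe sets of EVI5 (3) and TBC1D4 (2) did not. DENND1B (-0.14), CHM (-0.11), RUFY2 (-0.16) and RILPL1 (0.33) each passed in a further probe set in the same direction. Neither the other probe set of APPL2 (0.22) nor another of DENND1B (-0.02) passed.

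Of 6 further proteins that bind or switch RAB22A or RAB8B, or act beside them on the same membranes, EEA1 did not pass in any of 3 probe sets (-0.08 to 0.10), nor did RBSN, a tether of early endosomes (0.01), and OPTN, an effector of RAB8 (-0.04). RABGEF1, an exchange factor of RAB5 that RAB22A brings to early endosomes, was higher in 1 probe set (0.19, standard error 0.04), lower in another (-0.08, standard error 0.03) and not past the threshold in the last (-0.02). RAB3IP, an exchange factor of RAB8, was higher (0.15, standard error 0.05, adjusted p = 0.0262). MICALL1, which joins RAB8 to recycling membranes, was lower in 1 of 3 probe sets (-0.18, standard error 0.03). The differences of these 6 genes were under 0.2 in size, below those of RILPL1.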

How the data were processed

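The authors measured 1 Affymetrix chicken array per hen and made the deposited log2 values with RMA in GeneSpring GX (background correction, quantile normalization, centring on the median). Each of the 38535 probe sets had a median of 0 (within 1e-06) in hens 1 to 30 and, separately, in hens 31 to 60, so no filter on low values, signal over background or level could be had, and the number of arrays limits the precision. Line, group size and side came from the labels. The model was fitted by limma 3.58.1 under R 4.3.3 (4 group means and a term for the set, contrasts, eBayes), with a threshold of 0.05 on the adjusted p, and was tested on simulated data beforehand. The set of arrays is the run of hen numbers that shares a zero point, and nothing more is known of it.

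Symbols came from the array's probe table (27178 probe sets with 1 symbol, 177 with several, 11180 with none). An "s" in a probe set's name marks probes shared by several transcripts of the array's design. The symbol RAB41 stands for 2 gene identifiers, and the identifiers of RAB39A, RAB44 and 1 probe set of RAB41 were not matched in the RefSeq table. The members, the lists, the grouping by compartment and the marker genes were chosen with earlier results of these data known. Named are RAB22A and RAB8B, genes past the line threshold by at least 0.25, those past a group size contrast or else the 4 with the smallest p, the 10 probe sets of regulators with the largest differences past the threshold, and 6 partners of RAB22A and RAB8B. Other Rab genes that passed, or that the 3 arrays of lowest actin 5' less 3' difference moved, were named after their values were seen. Alternatives were fits without the set term, within each set, side or group size, with trend, array weights, other scaling, a filter on SD, without LB hens 7, 8 and 16, with actin as a covariate, and the methods' t-test.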

Additional observations from a re-analysis of the deposited data

How the results depend on the processing

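Of the line differences, 16 Rab probe sets passed, against 18.4% of all probe sets. Under 12 of 14 alternatives 14 to 18 passed, against 13.1% to 20.5% of all. The filter on SD left 75 Rab probe sets, of which 14 passed (20% of all tested did). With hens 1 to 30 alone and with compartments of 36 alone, which leave fewer hens, 7 passed in each (9.11% and 9.29% of all did). Counted by genes, 12 passed, and 7 with the 1 probe set of largest SD for each gene. For group size, the count of Rab probe sets past the threshold was 1 (RAB8B) in the main fit. This count fell to 0 over hens 1 to 30, over hens 31 to 60 and with the right side alone. It was also 0 with actin as a covariate and in the methods' t-test. The difference itself, given above for these fits but not for the t-test, changed little in size. The cause was not tested. Of 311 refits of named probe sets, 276 kept their side of the threshold, 31 lost and 4 gained it, and 0 that passed changed sign. The 4 that gained it were all of RAB8B Gga.11709.1.S1_at. These refits covered the probe sets that had passed and those of RAB22A and RAB8B, so no other could gain it there. Other Rab probe sets did pass in some alternatives. With array weights, for example, 18 passed between the lines (20.5% of all did), 16 of them the same as in the main fit. RAB22A (2 probe sets), RAB4A, RAB10L Gga.8164.1.S1_a_at and RAB40B Gga.12889.1.S1_at passed in all 14 alternatives. RAB22A Gga.7554.1.S1_s_at ranged from 2.68 in compartments of 54 to 3.68 in compartments of 36. After quantile normalization 50.3% of all called probe sets were higher in LSL, against 44.3%. No paired analysis was possible because no hen number stands in more than 1 group. A filter on low expression and another background correction were not possible with centred values.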
